A study of Mus musculus with 13 samples.

Results

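Cluster 9 was the deposited cell cluster that held most microglia of the uninflamed mouse spinal cord. Its members were the cells that the deposited cell table annotates as microglia and places in cluster 9: 5704 of 17670 microglia, among 22148 cells in all. 1 further cell of the cluster was annotated as a T cell and was left out. The series profiled single myeloid cells of the spinal cord in experimental autoimmune encephalomyelitis (EAE), an immune-mediated inflammation of the central nervous system, in 13 libraries sorted by FACS as resident or infiltrating cells. The groups were resident cells at peak EAE (2 libraries), resident cells in chronic EAE (3), infiltrating cells at peak (2) and in chronic EAE (3), and resident cells of healthy controls (3). All of them, controls included, carried Cx3cr1YFPCreERT2:R26tdTomato, in which the Cx3cr1 promoter drives a YFP-linked, tamoxifen-inducible Cre that switches on tdTomato. Cx3cr1 is expressed by microglia and also by other macrophages and some monocytes, so the reporter is not specific to microglia. The age and the number of animals behind a library are not given in the sources used here. The sample titles call the libraries of a group biological replicates. Library names in the cell table do not carry the replicate numbers of the titles, so the letters a, b and c given to libraries carry no such number. The cell table calls controls a and b controls of the peak stage and control c a control of the chronic stage.

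Microglia are the resident macrophages of the brain and spinal cord. In the healthy cord they survey the tissue with motile processes, and they depend on CSF1 receptor signalling and on TGF-beta, which maintains a transcription programme driven by PU.1, Sall1, Mef2 factors and SMAD proteins. In demyelination, infection and degeneration they lower this homeostatic programme and raise lipid-handling, lysosomal, interferon or antigen-presentation genes.

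The markers given for the cluster were P2ry12, an ADP receptor that steers process movement toward tissue damage, Siglech, a sialic acid-binding lectin, Hpgd, which inactivates prostaglandins, Slc2a5, the fructose transporter GLUT5, and Lrba, a vesicle-trafficking protein. The promoters of the 2 markers that led the comparison below, P2ry12 and Slc2a5, are shown with that of Siglech, whose window holds both motifs searched. The Hpgd window, not shown, also holds both. Each is the strand of the gene, 5′ to 3′, from 250 bases before to 50 bases after the RefSeq start (GRCm38.p6). P2ry12 spans chr3:59262936-59263235 on the minus strand. Siglech spans chr7:55767934-55768233 and Slc2a5 spans chr4:150119094-150119393, both on the plus strand. Capitals mark the letters GAGGAA, a core that PU.1 binds, or CAGAC, the SMAD box, each read on either strand. No match of one overlaps a match of the other.
P2ry12: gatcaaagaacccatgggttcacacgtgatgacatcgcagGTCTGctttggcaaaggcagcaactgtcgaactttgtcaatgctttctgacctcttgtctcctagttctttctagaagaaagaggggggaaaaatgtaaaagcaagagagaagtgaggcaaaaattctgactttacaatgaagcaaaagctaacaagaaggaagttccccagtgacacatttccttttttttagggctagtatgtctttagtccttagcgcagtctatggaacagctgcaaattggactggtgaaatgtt
Siglech: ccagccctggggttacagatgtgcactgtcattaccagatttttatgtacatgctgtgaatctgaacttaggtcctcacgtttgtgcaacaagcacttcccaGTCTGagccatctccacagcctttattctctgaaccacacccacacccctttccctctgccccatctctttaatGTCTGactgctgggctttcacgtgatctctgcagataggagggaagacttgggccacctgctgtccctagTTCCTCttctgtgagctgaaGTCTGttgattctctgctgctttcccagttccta
Slc2a5: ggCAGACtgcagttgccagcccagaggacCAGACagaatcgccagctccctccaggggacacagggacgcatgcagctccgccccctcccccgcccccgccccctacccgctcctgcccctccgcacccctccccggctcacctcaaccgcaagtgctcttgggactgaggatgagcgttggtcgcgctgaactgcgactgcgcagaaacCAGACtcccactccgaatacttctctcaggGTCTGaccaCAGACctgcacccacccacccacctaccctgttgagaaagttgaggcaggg
The PU.1 core occurred once in the Siglech window and not in those of P2ry12 and Slc2a5, and 28.3% of 32851 promoters of this length held it. The SMAD box occurred once in P2ry12, 3 times in Siglech and 5 times in Slc2a5, and 49.6% of promoters held at least 1. All 5 markers had a promoter in the table. Of those not shown, Hpgd held 1 PU.1 core and 1 SMAD box, and Lrba held 1 PU.1 core and 0 SMAD boxes. These matches are a description of letters, not of binding.

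Almost every member came from a control library. Cluster 9 held 0 of 486 and 0 of 704 microglia in the peak resident libraries, which allows shares of up to 0.617% and 0.426% when 3 cells are taken as the limit; the exact two-sided 95% intervals reach 0.756% and 0.523%. Chronic resident library a held 1 member of 1966 microglia, b held 5 of 2046 and c held 22 of 4293. These are shares of 0.0509%, 0.244% and 0.512%. In the control libraries the shares were 90.4% (exact 95% interval 89.0 to 91.8%; 1600 cells), 87.8% (85.8 to 89.7%; 1009 cells) and 94.6% (93.8 to 95.4%; 3063 cells). All 3 control shares lay far above all 5 EAE resident shares, and the intervals cover counting error only. Chronic infiltrating library b gave the remaining 4 members. Control cells were thus 99.4% of the cluster. The deposited clusters were made from the expression of these same cells, so this distribution is described and not tested.

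**Figure D1:**
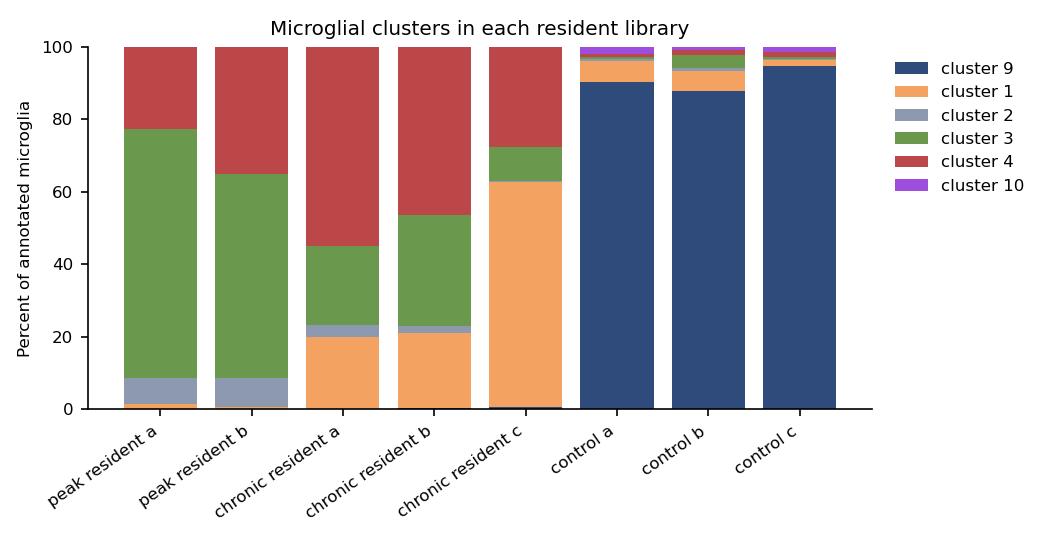
Stacked bars give the percent of annotated microglia in each deposited cluster (y axis) for each resident library (x axis). Cluster 9 fills 87.8 to 94.6% of the 3 control libraries and at most 0.512% of the 5 EAE libraries. Clusters 3 and 4 together fill most of the 2 peak libraries, and clusters 1, 3 and 4 most of the 3 chronic ones.

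The 483 control microglia outside cluster 9 show what else the uninflamed cord held. They lay in clusters 1 (224 cells), 10 (89), 3 (80), 4 (69) and 2 (21). Cluster 10 held control cells alone, while 91.7 to 98.4% of clusters 1, 2, 3 and 4 came from EAE libraries. Comparing cluster 9 with these cells inside the same library keeps the sort and the sequencing pool the same.

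The libraries held 4111257 to 22450385 unique molecular identifiers (UMIs) each. Levels are given as CPM, the UMIs of a gene scaled to a fixed total for each set of cells. Cluster 9 held 6060189, 4664096 and 9574136 UMIs in controls a, b and c. Its cells were slightly smaller libraries than the other microglia beside them. The median was 3616, 4448 and 2990 UMIs per cell in cluster 9, against 3904, 4837 and 3715.5 in the other microglia of controls a, b and c. Median genes per cell were 1737, 2122 and 1523 in cluster 9, against 1748, 2178 and 1669. The mitochondrial share of UMIs was 1.06, 1.44 and 1.07% in cluster 9, against 1.45, 1.73 and 1.39%. All 3 measures were lower in cluster 9 in each of the 3 controls. No cell of the table was marked as a doublet. Of the barcodes, 55 occurred in more than 1 library, at most 6 in any pair of libraries, and 25 cluster 9 cells carried such a barcode, none of them from EAE.

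Markers of other cells were low in cluster 9, except for single genes that lead a list. T cell markers summed to 0.990, 1.5 and 0.627 CPM in cluster 9 of controls a, b and c, and Cd3e, Cd3d, Cd3g and Cd2 were at 0 UMIs there. Monocyte markers summed to 22.6, 24.2 and 14.4 CPM over 12 genes, with the monocyte chemokine receptor Ccr2 at 0.7 to 1.3 CPM. Border-associated macrophage markers summed to 122, 175 and 121 CPM, of which Stab1 gave 118, 172 and 117 CPM; the mannose receptor Mrc1 was at 0.4 to 1.2 CPM and Cd209f at 0. The neutrophil list summed to 219.6, 407 and 188 CPM, nearly all from Csf3r, a growth factor receptor that microglia also express, and Retnlg, Mmp8 and Ltf were at 0. The dendritic cell list had the highest sum, 1446, 1747 and 1274 CPM in cluster 9, against 878, 1122 and 668 CPM in the other microglia. Siglech, which is also a marker of the cluster, gave 996, 1577 and 943 CPM of it and Fscn1, an actin-bundling protein, 443, 163 and 326 CPM. The dendritic genes Flt3, Zbtb46, Xcr1, Clec9a and Itgae were at most 3.43 CPM, and Cd209a, Ccr7 and Ccl22 were at 0. Oligodendrocyte markers summed to 178, 131 and 116 CPM and astrocyte markers to 118, 149.7 and 137 CPM. Their level in the other microglia of the same libraries was 137, 122 and 109.8 CPM and 105, 150.4 and 93.9 CPM.

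All 5 markers had a higher level in cluster 9, and were detected in more of its thinned cells, than in the other microglia of each control library. P2ry12 had 3910, 2562 and 3346 CPM in cluster 9 of controls a, b and c, against 1649.9, 1223 and 1192 CPM in the other microglia of the same libraries. The log2 ratio of CPM + 1 averaged 1.27 ± 0.21 (SD, n = 3 libraries), a 2.41-fold difference. Every cluster 9 value lay above every value of the other microglia. After each cell was thinned to 2000 UMIs, P2ry12 was detected in 99.6, 99 and 99.4% of cluster 9 cells, against 91.4, 86.4 and 78.2% of the other microglia. Unthinned, the shares were 99.9, 100 and 99.8% against 97.6, 93.6 and 91.4%. T cells of chronic library c, which should lack the gene, gave 3.12% of 32 cells after thinning. Unthinned, at a median of 3565 UMIs, they gave 5.56%.

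Slc2a5 differed by the larger ratio. It had 276, 291 and 229 CPM in cluster 9, against 102, 117 and 46.3 CPM in the other control microglia, a log2 ratio of 1.67 ± 0.53 (SD, n = 3). It was nevertheless detected in only 40.1, 42.6 and 35.4% of thinned cluster 9 cells, against 19.6, 21.2 and 8.82% of the others, and in 0 of 32 T cells of chronic library c. Siglech had 996, 1577 and 943 CPM in cluster 9, against 613, 1014 and 499 CPM. Hpgd had 923, 708 and 990.1 CPM, against 517, 428 and 508 CPM. Lrba had 194, 185 and 202 CPM, against 85.8, 93.1 and 84.7 CPM. The 2 ranges did not overlap for Hpgd, Lrba or Slc2a5, and they did overlap for Siglech, whose level in control b was high in both sets. A thinned cluster 9 cell held on average 3.35, 3.35 and 3.32 of the 5 markers, against 2.58, 2.62 and 2.18 in the other control microglia. T cells of chronic library c held 0.156.

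The order of clusters 1 and 3 in control and chronic EAE cells differed for P2ry12, Siglech and Slc2a5 but not for Lrba. P2ry12, Siglech and Slc2a5 were each higher in cluster 3 than in cluster 1 in controls b and c. Each was lower in cluster 3 in the 3 chronic resident libraries. Cluster 3 of control c held 23 cells. Lrba and Hpgd fell in the order of clusters 9, 1, 3 and 4 in both control c and chronic resident c. In control b, however, Hpgd had 525 CPM in cluster 3 and 398 CPM in cluster 1. In P2ry12, control cells ran from 2562 to 3910 CPM in cluster 9, 1684 to 2157 in cluster 3, 1236 to 1966 in cluster 1 and 1300 to 1582 in cluster 10, with 424 CPM in cluster 4. The ranges of clusters 3 and 1, and of 1 and 10, overlapped. In cluster 1, P2ry12 had 1328 to 1907 CPM in the 3 chronic resident libraries and 2109 and 1516 CPM in chronic infiltrating b and c, against 1236 to 1966 CPM in the 3 controls. Lrba in cluster 1 had 15.5 to 41.7 CPM in the chronic resident libraries and 26.6 and 11.2 CPM in the infiltrating ones, against 85.6 to 116 CPM in controls. Hpgd had 167 to 186 CPM and 149 and 247 CPM, against 398 to 662 CPM in controls. For Lrba and Hpgd the ranges of all 5 chronic libraries and of the controls did not overlap, and for P2ry12 and Slc2a5 they did. The share of all genes that separate in this way was not counted, so Lrba and Hpgd cannot be called unusual. Siglech had 223 to 510 CPM in the chronic resident libraries, below the 625 to 1126 CPM of the controls, but chronic infiltrating c, with 32 cells of cluster 1, had 674 CPM, within the control range, and infiltrating b had 274 CPM. In cluster 3 the peak libraries were lowest in P2ry12, with 280.0 and 382 CPM at peak, 697 to 1241 CPM in chronic EAE and 1684 and 2157 CPM in controls. These values come from clusters made on the same cells and are given with no test.

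**Figure D2:**
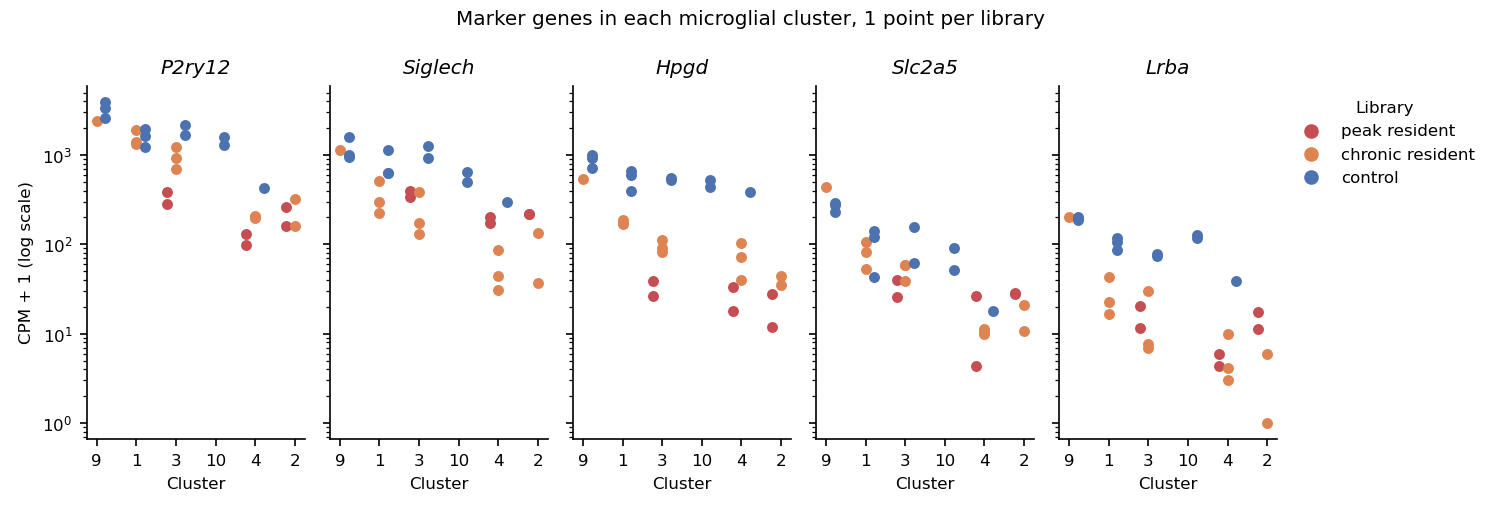
Points give the level of each marker in CPM + 1 (log y axis) in 1 library and cluster (x axis), for resident libraries and sets of at least 20 cells; colours give the group. Cluster 9 is the highest set within each control library for each marker, and in cluster 1 the chronic resident and control points separate for Hpgd, Siglech and Lrba but not for P2ry12.

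Genes that set cluster 9 apart were sought in the 4 libraries with at least 20 cells on both sides, chronic resident c and the 3 controls. Of 3712 genes with a mean of at least 50 CPM over these libraries in either set, 4 were higher in cluster 9 by at least 2-fold in all 4 (0.108%) and 62 were lower (1.67%). Among the 4 were P2ry12, Slc2a5 and Il7r. Far fewer genes passed 2-fold as higher than as lower. Il7r, the interleukin-7 receptor, had 57.0 CPM in cluster 9 of chronic c and 113, 103 and 95.6 CPM in controls a, b and c, against 11.8, 53.1, 49.2 and 33.1 CPM in the other microglia. The chronic value rests on 4 UMIs. Without control b, 11 genes were higher, so that library limited the count. The lower calls in chronic c rest on few UMIs: of the 62 genes, 21 had 0 UMIs in its cluster 9 cells. With cluster 9 sums of under 3 UMIs taken as 3, 37 of the 62 stayed at least 2-fold lower in all 4 libraries. In the 3 controls alone, 78 genes were lower.

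The 15 lower genes with the largest smallest ratio were Ccl4, Lgals3, Ccl3, Cxcl10, Spp1, Ch25h, Ifi207, Cybb, Apoe, Lpl, Clec7a, Top2a, Plaur, Isg15 and Cst7. Of these, 8 had 0 UMIs in cluster 9 of chronic c, and Cxcl10, Ifi207, Top2a and Isg15 did not pass there with the 3-UMI floor. The 15 include chemokines, lipid genes, interferon-induced genes and a cell cycle gene. Ccl4, a chemokine that attracts leukocytes, had 14.3 CPM in cluster 9 of chronic c and 10.2, 12.6 and 23.7 CPM in controls a, b and c, against 587, 922, 704 and 1603 CPM in the other microglia. Spp1, osteopontin, had 6.27, 4.29 and 6.27 CPM in cluster 9 of the controls, against 317, 1046 and 1972 CPM, a 133-fold difference. Apoe, the apolipoprotein of glial lipid transport, had 704, 347 and 374 CPM, against 8482, 7335 and 12188 CPM. Cybb, which encodes the electron-transferring subunit of phagocyte NADPH oxidase, had 2.15, 3.86 and 2.92 CPM, against 43.6, 144 and 88.6 CPM. None of these ranges overlapped.

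**Figure D3:**
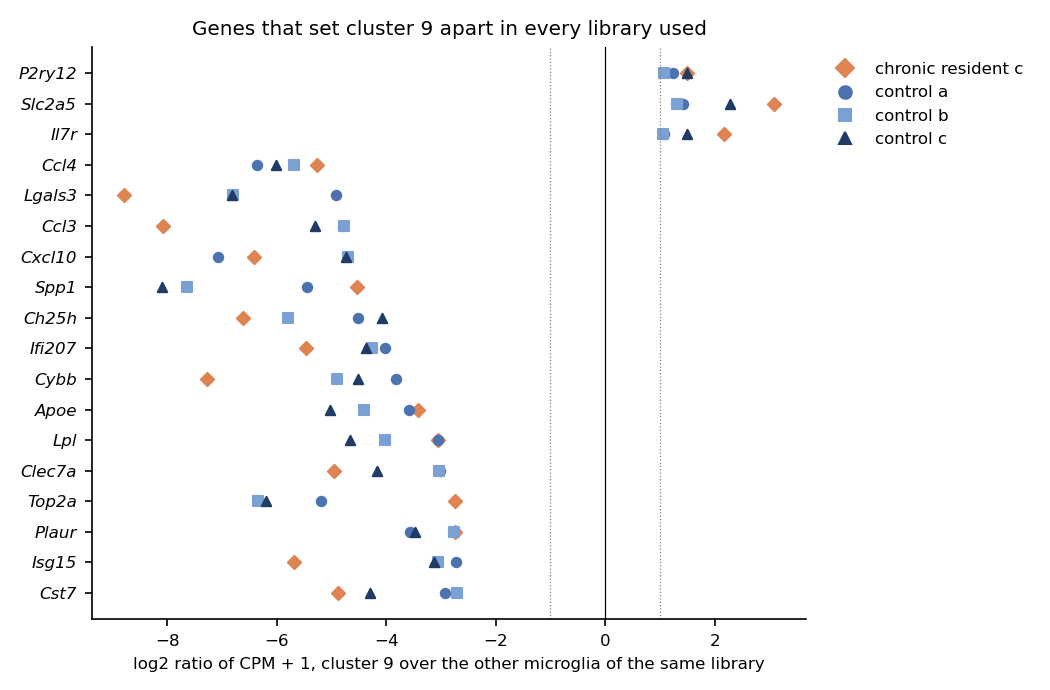
Each point is the log2 ratio of CPM + 1 in cluster 9 over the other microglia of 1 library (x axis) for the genes that differed by at least 2-fold (dotted lines) in all 4 libraries used, 3 of the 4 higher (P2ry12, Slc2a5 and Il7r) and the first 15 lower. The 3 higher genes lie between 1.05 and 3.08. The chronic c points of 8 lower genes come from 0 UMIs, so the pseudocount sets their place.

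Gene lists were then read in the 3 control libraries alone, over 8244 genes with a mean of at least 10 CPM. Among all of these, 16 were at least 2-fold higher in cluster 9 in each control (0.194%) and 159 lower (1.93%), and the median log2 ratio was 0.13. The mean log2 ratio was above 0 for 5333 of the 8244 genes and below 0 for 2911. Counts of list members above 0 are to be read against these. Of 16 homeostatic microglial genes 1, P2ry12, passed 2-fold as higher and 0 as lower, with a median of 0.57 and 15 of 16 above 0. P2ry13, a second ADP receptor, had 535, 729 and 519 CPM in cluster 9, against 294, 431 and 212 CPM. Tmem119, a surface protein used to identify microglia, had 1507, 1914 and 1443 CPM, against 911, 1313 and 742 CPM. Cx3cr1, the fractalkine receptor, had 2249, 3121 and 2596 CPM, against 1409, 2303 and 1632 CPM. Csf1r, the receptor for colony-stimulating factor 1, had a mean log2 ratio of 0.44 ± 0.12. Trem2, the lipid-sensing receptor that the disease-associated programme requires, was the exception at -0.09 ± 0.10 (SD, n = 3 each).

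No transcription factor or TGF-beta gene of the lists passed 2-fold in each control. Of 16 microglial transcription factors 0 passed in either direction, with a median of 0.37. Sall1, which restrains inflammatory genes in microglia, had 228, 390 and 226 CPM in cluster 9, against 139, 225 and 102 CPM, a log2 ratio of 0.88 ± 0.23. Maf stood at 0.87 ± 0.16, Mef2a at 0.58 ± 0.11 and the PU.1 gene Spi1 at 0.25 ± 0.05. Of 11 TGF-beta signalling genes tested, 0 passed and all 11 had a mean above 0, with a median of 0.38. The receptor Tgfbr1 had 1245, 1397 and 1375 CPM, against 863, 989 and 888 CPM. The ligand Tgfb1 and its milieu molecule Nrros both had a mean log2 ratio of 0.38.

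Most disease-associated genes were lower in cluster 9. Of 21 tested, 13 were at least 2-fold lower in cluster 9 in each control and 0 higher, with a median of -2.23. Among the 13 were Lpl, lipoprotein lipase, at -3.91 ± 0.81, the lectin Clec7a at -3.41 ± 0.67, the integrin Itgax at -3.06 and Cd63 at -1.80. Trem2 and its adaptor Tyrobp, at -0.36, did not pass. Of 18 lipid and lysosome genes 2 were lower, Fabp5 and Nceh1, with a median of -0.46. The lysosomal protease Ctss differed little, with 10962, 7743 and 10548 CPM in cluster 9, against 12204, 8546 and 10672 CPM.

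Interferon-induced genes were low in cluster 9: 18 of 22 passed as lower and 0 as higher, with a median of -2.48. Ifit3 had 15.2, 22.3 and 8.88 CPM in cluster 9, against 182, 351 and 102 CPM. Isg15 had 21.8, 29.6 and 10.8 CPM, against 149.7, 254 and 102 CPM. Irf1 was the member with a mean above 0, at 0.06. Of 14 MHC class I genes 1 was lower, H2-Q7, with a median of -0.61, and B2m had a mean ratio of -0.51. Of 10 MHC class II genes 3 were lower, Cd74, H2-Aa and H2-Eb1, while the peptide-loading genes H2-DMa and H2-DMb1 had mean ratios of 0.06 and 0.21. Of 17 cytokine and chemokine genes 9 were lower and 0 higher, with Ccl12 at 163, 185 and 85.5 CPM in cluster 9, against 1028, 1148 and 741 CPM. Il1a, at 0.14, and Il6, at 0.61, had means above 0, and neither passed 2-fold.

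Of 16 proliferation genes 10 were lower in cluster 9 and 0 higher, with a median of -2.08. The list summed to 587, 548 and 566 CPM in cluster 9, against 1361, 1815 and 1607 CPM, and Tubb5, a tubulin, gave 338, 304 and 344 CPM of the cluster 9 sums. Mki67 and Top2a, markers of dividing cells, were near 0. Mki67 had 0.330, 1.07 and 0 CPM in cluster 9, against 35.4, 91.8 and 82.0 CPM. Top2a had 1.49, 0.858 and 0.836 CPM, against 89.8, 149.0 and 134 CPM. Genes induced by tissue dissociation did not separate the sets as a list: 0 of 13 were higher and 2 were lower, Atf3 and Ier3, with a median of -0.02.

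The study concerns electron transport in myeloid mitochondria, so respiratory chain subunits were counted too. Of 36 nuclear-encoded complex I subunits 0 passed 2-fold in either direction, with a median of -0.10 and 11 of 36 above 0. Ndufs4 had 55.9, 76.8 and 60.2 CPM in cluster 9, against 81.7, 59.9 and 70.1 CPM, and the ranges overlapped. Of 35 nuclear subunits of complexes III, IV and V 0 passed, with a median of -0.24 and 5 above 0. The 7 complex I subunits encoded in mitochondrial DNA had 0 past 2-fold and 0 of 7 above 0, with a median of -0.48. Their sum was 3293, 4383 and 3629 CPM in cluster 9, against 4566, 5395 and 5111 CPM in the other microglia, lower within each control library. ND4 had 1057, 1626 and 1431 CPM, against 1397, 1953 and 1915 CPM. The other 6 mitochondrially encoded genes had a median of -0.44 and 0 of 6 above 0. These 13 genes are the ones that set the mitochondrial share given above.

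Glycolysis and hexose transport genes leaned lower in cluster 9. The whole list summed to 3039, 2423 and 2732 CPM in cluster 9 of controls a, b and c, against 4522, 3342 and 4727 CPM. Of 17 glycolysis and hexose transport genes 1 was higher, Slc2a5, and 3 were lower, Slc2a6, Tpi1 and Pkm, with a median of -0.88 and 4 above 0. Pkm, pyruvate kinase, had 175, 139 and 125 CPM in cluster 9, against 370.3, 311 and 376 CPM. Ldha, lactate dehydrogenase, had a log2 ratio of -1.03 and did not pass in control a. The hexokinase Hk2 stood at 0.18.

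**Figure D4:**
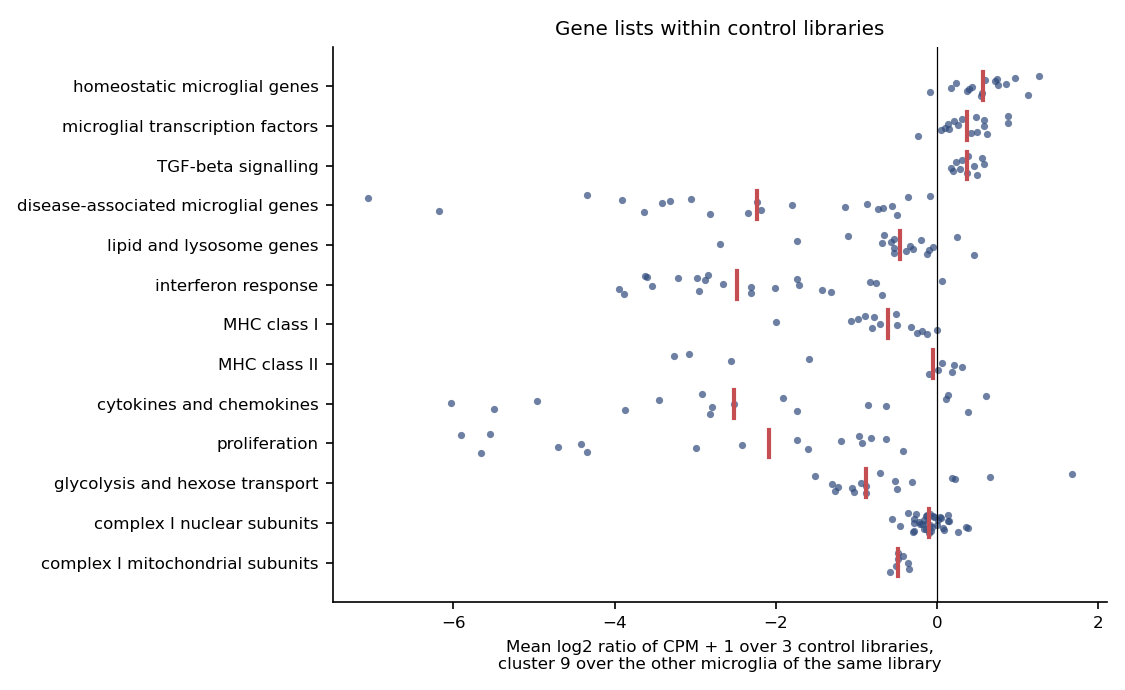
Each blue point is 1 gene's mean log2 ratio of CPM + 1 over the 3 control libraries, cluster 9 over the other microglia (x axis), by gene list (y axis); the red line is the list's median. Homeostatic, transcription factor and TGF-beta medians lie at 0.37 to 0.57, and disease-associated, interferon, cytokine and proliferation medians lie at -2.08 or below.

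The lower genes belonged to different neighbours. Against cluster 1, in 3 controls, 5 of 3672 genes were higher in cluster 9 (0.136%) and 22 lower (0.599%). Apoe led the lower ones, with 704, 347 and 374 CPM in cluster 9, against 9552, 14827 and 19930.2 CPM in cluster 1. The 5 higher ones were Khdrbs3, Klhdc8b, Crybb1, Prkab1 and Slc2a5. Cluster 1 of control c held 190364 UMIs, with Prkab1 at 5.25, Klhdc8b at 10.5 and Khdrbs3 at 26.3 CPM. The ratios of these genes there thus rest on few UMIs. Against cluster 3, in controls b and c, 28 of 3999 were higher (0.7%) and 143 lower (3.58%), led by the interferon-induced genes Iigp1, Cxcl10 and Ifit2. Ifit2 had 6.43 and 3.45 CPM in cluster 9, against 471 and 319 CPM in cluster 3. Apoe differed less there, with 347 and 374 CPM against 754 and 2095 CPM over the same controls. Against cluster 10, in controls a and c, 59 of 3810 were higher (1.55%) and 105 lower (2.76%), led by Ccl4, Ccl3, Lgals3 and Lpl. Cysltr1, a leukotriene receptor, was among the higher ones, with 156 and 178 CPM in cluster 9, against 24.2 and 45.7 CPM in cluster 10. Against cluster 4, in control c alone and over 40 cells of it, 979 of 3730 were higher (26.2%) and 230 lower (6.17%). With no second library to repeat the 2-fold difference, these shares cannot be set beside those for clusters 1, 3 and 10. Cluster 4 cells there had a median of 5285 UMIs, against 2990 in cluster 9, so it differed in RNA content as well. Spp1 had 6.27 CPM in cluster 9 and 6145 CPM in cluster 4.

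Within cluster 9 the controls were close to one another. Of 3526 genes with a mean of at least 50 CPM, 71 (2.01%) spanned 2-fold or more over the 3 libraries and 2 spanned 4-fold, with a median span of 0.36 on the log2 scale. Control b was the outlying and highest library for 53 of the 71. The 2 widest were Lars2, a mitochondrial leucyl-tRNA synthetase, and the immediate early gene Jun, which had 207, 862 and 216 CPM in controls a, b and c. Interferon-induced Ifi27l2a had 101, 219 and 60.8 CPM. ATP6, encoded in mitochondrial DNA, had 1275, 2926 and 1448 CPM. Of the 16 homeostatic genes 0 spanned 2-fold. The 3 controls came from 3 different sequencing pools, so pool and library cannot be told apart here.

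Only 32 members came from EAE tissue, so comparisons of members by disease state rest on few cells. In chronic library c, which shared its sequencing pool with control c, the 22 cells held 70143 UMIs, and 3 UMIs are worth 42.8 CPM there. The clusters were made from expression, so the marker levels of these cells are a description and do not test their state. P2ry12 had 2395 CPM (exact Poisson 95% interval 2047 to 2786), against 3910, 2562 and 3346 CPM in controls a, b and c. Slc2a5 had 442 CPM (300.3 to 627), above the 276, 291 and 229 CPM of the controls. Lrba had 199.6 CPM, within the 185 to 202 CPM of the controls, and Hpgd had 542 CPM, below their 708 to 990.1 CPM. The other 10 EAE members, from 3 libraries and 19527 UMIs together, had 3175 CPM of P2ry12 (2434 to 4070) and 0 UMIs of Slc2a5, an interval that reaches 189 CPM. Their Cx3cr1 was 819 CPM (468 to 1331), against 2249 to 3121 CPM in cluster 9 of the controls. In cluster 1 of the 3 libraries that gave these 10 members, Cx3cr1 was 669 to 766 CPM. Cluster 1 had 1668 CPM of it in chronic c and 1603 to 2456 CPM in the controls. The 22 cluster 9 cells of chronic c had 2552 CPM of Cx3cr1 (2192 to 2954), within the cluster 9 range of the controls. These intervals cover counting error only.

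A fit over libraries with at least 5 cluster 9 cells set chronic resident b and c against the 3 controls. Of 10179 genes, 4 rose in chronic cells (0.0393%) and 1 fell (0.00982%), at an adjusted p under 0.05 (quasi-likelihood test of edgeR, Benjamini-Hochberg over all genes). The 4 were Spp1, Apoe, H2-Aa and Cd74. Spp1 rested on 1 and 16 UMIs in chronic b and c, against 38, 20 and 60 UMIs in the far deeper controls, a log2 change of 4.87 ± 0.59 (SE; edgeR adjusted p = 1.23e-12). Apoe rested on 30 and 249 UMIs, against 4267, 1618 and 3578, a log2 change of 2.39 ± 0.40 (SE; edgeR adjusted p = 8.56e-06). H2-Aa had 2 and 4 UMIs in the chronic cells (edgeR adjusted p = 0.0183). Cd74, the MHC class II invariant chain, rested on 14 and 7 UMIs, a log2 change of 2.09 ± 0.48 (SE; edgeR adjusted p = 0.0304). Its TMM-scaled level was 859 and 108 CPM in chronic b and c, against 111, 44.1 and 54.6 CPM in controls a, b and c, so the groups overlapped. The log2 change of Cd74 was 0.68 without chronic b and 3.61 without chronic c, and its call was also lost without control b (edgeR adjusted p = 0.16), without control c (edgeR adjusted p = 0.58) and in DESeq2. Kif5b, a kinesin heavy chain, had 0 UMIs in both chronic libraries, against 145 ± 15.8 CPM in controls (SD, n = 3), at least 3.84-fold lower when 3 UMIs over both libraries are taken as the floor (edgeR adjusted p = 0.0388). Of the 5, 1 was still called without chronic c, Cd74, and 2 without chronic b, Spp1 and Apoe; without control c, Spp1 and H2-Aa were. Kif5b was not called in any fit that left out 1 library, nor by DESeq2. The median log2 change of all genes was -0.50, and the changes are to be read against it.

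Of 16 homeostatic genes and of 36 nuclear complex I subunits 0 were called in that fit, with medians of -0.65 and -0.24. MHC class I genes also had 0 called of 15, with a median of 0.49. Over all genes 0.0393% were called as higher and 0.00982% as lower. A count of 0 in lists of this size therefore says nothing particular about them. The chronic cells were placed in cluster 9 by expression, so the homeostatic count does not test their state. H2-D1, a classical class I gene, had 2481 CPM in chronic c (2126 to 2878), against 1249, 1353 and 1012 CPM in controls a, b and c.

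The genes that rose were also present in cells of another type in the same library. In T cells of chronic c, Apoe stood at 4723 CPM, against 3550 CPM in its cluster 9 cells, and was detected in all thinned cells of both sets. Spp1 stood at 556 CPM in those T cells and 228 CPM in cluster 9, and was detected in 50.0% of thinned cells of each. Cd74 was detected in 30% of thinned cluster 9 cells and 34.4% of T cells, and H2-Aa stood at 57.0 CPM in cluster 9 and 54.2 CPM in T cells. In chronic b, whose 5 cells held 9111 UMIs, Apoe stood at 3293 CPM in cluster 9 (2222 to 4701), against 2461 CPM in T cells, and Cd74 stood at 1537 CPM (840.1 to 2578), against 2375 CPM. For all 4 genes in both chronic libraries the T cell level lay inside or above the Poisson interval of the cluster 9 level, an interval that is wide where 1 to 4 UMIs stand behind it. The part of RNA from other cells in these changes was not tested. H2-D1 in the same T cells was 4534 CPM. P2ry12, at 13.6 CPM, and Slc2a5, at 0, lay below their cluster 9 levels. The other chronic c microglia had 38141 CPM of Apoe and 5313 CPM of Spp1.

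**Figure D5:**
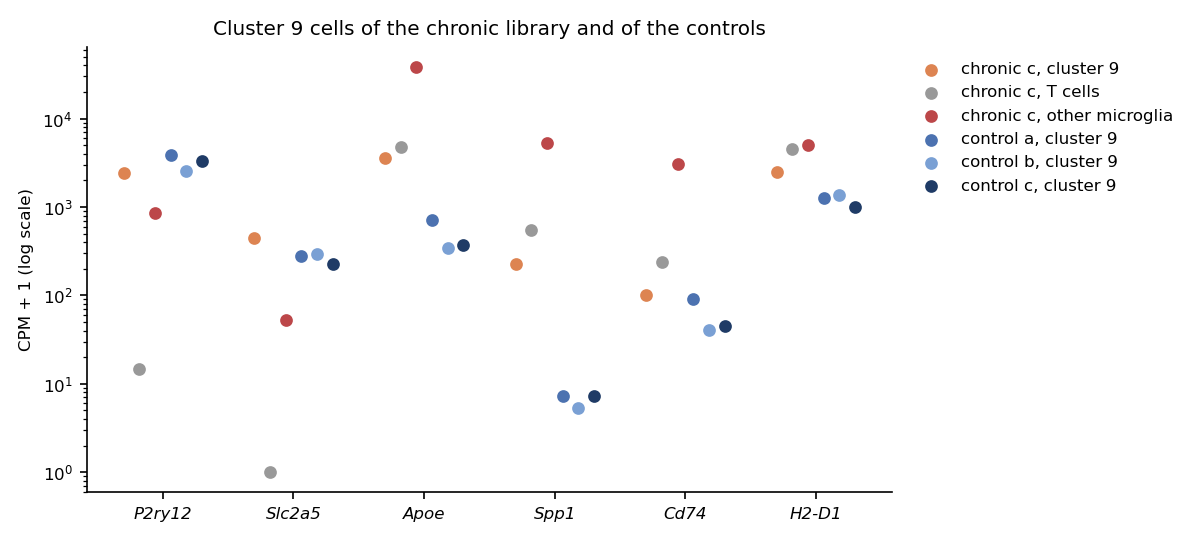
Points give the level of 6 genes (x axis) in CPM + 1 (log y axis) in cluster 9 cells, T cells and other microglia of chronic library c, and in cluster 9 cells of the 3 controls. P2ry12 and Slc2a5 lie far above the T cells, while Apoe, Spp1 and Cd74 of the chronic cluster 9 cells lie at or under the T cell level.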

How the data were processed

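Single-cell libraries were quantified by the authors with Cell Ranger 3.1.0, on GRCm38 (mm10), and analysed in R 4.1.3, per the submitters' processing notes. The deposited matrix holds raw UMI counts for all libraries together. The deposited cell table gives each cell's library, group, cluster, cell type and mitochondrial percent, a percent that the authors computed; in all 22148 cells it equals the summed share of the 13 mitochondrially encoded genes to within 1e-06 percentage points, and it reaches at most 5%. Cluster and cell type are the authors' own. It also holds each cell's log10 of total UMIs, deposited by the authors and used here only to check the sums. The sources used here do not say how cells were filtered and clustered, and the deposited table marks no doublet.

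Here UMIs were summed per library and cluster. Levels are CPM of that sum, and ratios use CPM + 1 within a library, for sets of at least 20 cells. Shares have exact Clopper-Pearson and levels exact Poisson intervals, at 95%. Detection used cells thinned to 2000 UMIs; 34, 11 and 145 cluster 9 cells of controls a, b and c, and 2 of 22 of chronic c, had fewer and were left out. The comparisons of chronic and peak EAE with controls inside cluster 9 had been planned on libraries of at least 20 cells, which leaves 1 EAE library. The fit reported, on libraries of at least 5 cells, was added after seeing the data (edgeR 4.0.16, TMM, filterByExpr, 3 residual degrees of freedom, biological coefficient of variation 17.7%). The clusters were made from the expression of the same cells as that fit, and the genes used for clustering are not given. Named genes were the markers, the fixed genes of each list and up to 15 genes each way by the smallest log2 ratio over the libraries used. The mitochondrially encoded lists were added after the matrix was read. Members and lists were chosen with earlier results of these data known. Promoters came from RefSeq tables. Some genes that enter the counts are not reported here by name.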

Additional observations from a re-analysis of the deposited data

How the results depend on the processing

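The shares of cluster 9 and the per-cell medians moved by less than their error under the alternatives run. With a pseudocount of 10 CPM 2 genes were higher in cluster 9 in all 4 libraries, and with no minimum level 16 were higher and 218 lower; leaving out 1 library gave 4 to 11 higher and 66 to 78 lower. With cluster 9 sums of under 3 UMIs taken as 3, an alternative chosen after seeing the data, 37 were lower. Of 132 values for single genes in that comparison, 12 moved by more than 1 SD and none changed sign. In the chronic comparison, DESeq2 called 8 higher and 0 lower, 3 of the 8 shared with edgeR, and no filter left 0 lower. Leaving out 1 library gave 1 to 4 higher and 0 to 3 lower; without chronic c, the deeper chronic library, 1 was higher and 3 lower. At an unadjusted p under 0.05 there were 608 genes. Scaling by library size alone put the median log2 change at -0.20. No paired analysis was possible because the cell table carries no replicate numbers. The planned comparisons at 20 or more cells, a 50-cell minimum and the exact permutation test of per-cell medians between groups could not be run with 1 EAE library. A pool term could not be run in the fit on libraries of at least 5 cells, where chronic b shared its pool with no control. For chronic b, pool and disease thus cannot be told apart.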
